A study of Mus musculus with 2 samples.

Results

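Fat is stored in liver cells as droplets of triglyceride under a coat of proteins, and 10 genes of that coat and of its lipase were examined here: the CIDE genes Cidea, Cideb and Cidec, the perilipin genes Plin2, Plin3, Plin4 and Plin5, and the lipolysis genes G0s2, Pnpla2 and Abhd5. They were chosen by name for these roles, but with earlier results of these data known. Counts among them therefore describe a set that was not chosen blind to the data. A gene counted as measured when the array had a probe set annotated to its symbol alone. This held for 9 of the 10, out of 22180 genes measured in all. Cideb was the exception, since its probe set is also annotated to the neighbouring gene Nop9.

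CIDE proteins sit where droplets touch and let lipid pass between them, which makes few and large droplets. Cidea and Cidec are best known from fat tissue and become expressed in fatty liver, whereas Cideb is a regular liver gene that also helps to load lipid onto secreted lipoproteins. Perilipins coat the droplet and limit access of lipases. The main such lipase, adipose triglyceride lipase, is encoded by Pnpla2, is activated by the product of Abhd5 (CGI-58) and is inhibited by that of G0s2.

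The study compared the livers of E4bp4-LKO and WT male mice, which were 2 months old when a high-fat diet began and ate it for 12 weeks. Each genotype had 1 array, hybridised with liver RNA pooled from several mice. E4bp4 (gene symbol Nfil3) encodes a transcriptional repressor of the basic leucine zipper family. The labels call the mice E4bp4-deficient. The sources used here do not give the promoter behind the deletion, how many mice each pool held or when in the day livers were taken. With 1 pool per genotype there is no replicate error and no test, so every difference below describes these 2 arrays.

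Values are RMA log2 intensities, and all differences are E4bp4-LKO minus WT. The targeted gene Nfil3 had 4.47 on the E4bp4-LKO array and 5.94 on the WT array, a difference of -1.47. The median over all probe sets was 3.75 on the E4bp4-LKO array and 3.74 on the WT array. The median of the genes' means, 4.20, served as a floor for dim genes and left 11090 genes above it, and all 9 measured droplet genes lay above it on both arrays. The 7 hepatocyte markers, such as Hnf4a (10.25 in E4bp4-LKO and 10.12 in WT) and Tat (12.05 in E4bp4-LKO and 11.89 in WT), were also above it on both arrays.

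Of the 9 measured droplet genes, 3 (Cidea, Cidec and Plin4) were lower in E4bp4-LKO by at least 1.5-fold and 0 were higher by as much. Among the 11090 genes above the floor 2.06% were lower by at least 1.5-fold and 1.51% higher. Cidea and Cidec were also lower by at least 2-fold, as were 0.406% of the genes above the floor. A negative difference was found for 8 of the 9, beside 54.5% of the genes above the floor. The median difference of the 9 was -0.22, beside -0.02 for the genes above the floor. The droplet genes did not move as a block: their differences ran from -2.35 to 0.09, with 6 of the 9 inside the range of -0.54 to 0.49 that held the central 95% of genes above the floor.

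Cidea had a value of 5.03 on the E4bp4-LKO array and 7.38 on the WT array. The difference of -2.35 is 5.09-fold and was the 2nd lowest of the 11090 genes. On the E4bp4-LKO array the gene lay within 1 unit of the floor, in the range where RMA compresses differences. By size of difference its neighbour on one side was Cyp2b13, a cytochrome P450 gene (-2.99). On the other side were Sprr1a (-2.22), which encodes a protein of the cornified envelope, and Gpnmb (-1.98), which marks lipid-laden macrophages. Gpnmb had 4.06 on the E4bp4-LKO array, below the floor, and 6.04 on the WT array.

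Cidec, also called Fsp27, had a value of 7.79 on the E4bp4-LKO array and 9.36 on the WT array. The difference of -1.57 is 2.97-fold and ranked 8th from the lowest. Both Cidec values were well clear of the floor. Next to it by size of difference were Myh2 (-1.83), a muscle myosin gene, Mmp12 (-1.63), the macrophage elastase gene, Gprc5b (-1.56), an orphan receptor gene, and Atp2a1 (-1.47), the calcium pump gene of skeletal muscle. Such closeness rests on 1 difference per gene.

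The probe set that Cideb shares with Nop9 had 11.45 on the E4bp4-LKO array and 11.53 on the WT array, a difference of -0.08. This signal cannot be divided between the genes. Nop9, a nucleolar protein gene, also has a probe set of its own, with 6.20 on the E4bp4-LKO array and 6.25 on the WT array. Both differences were small beside those of Cidea and Cidec.

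**Figure D1:**
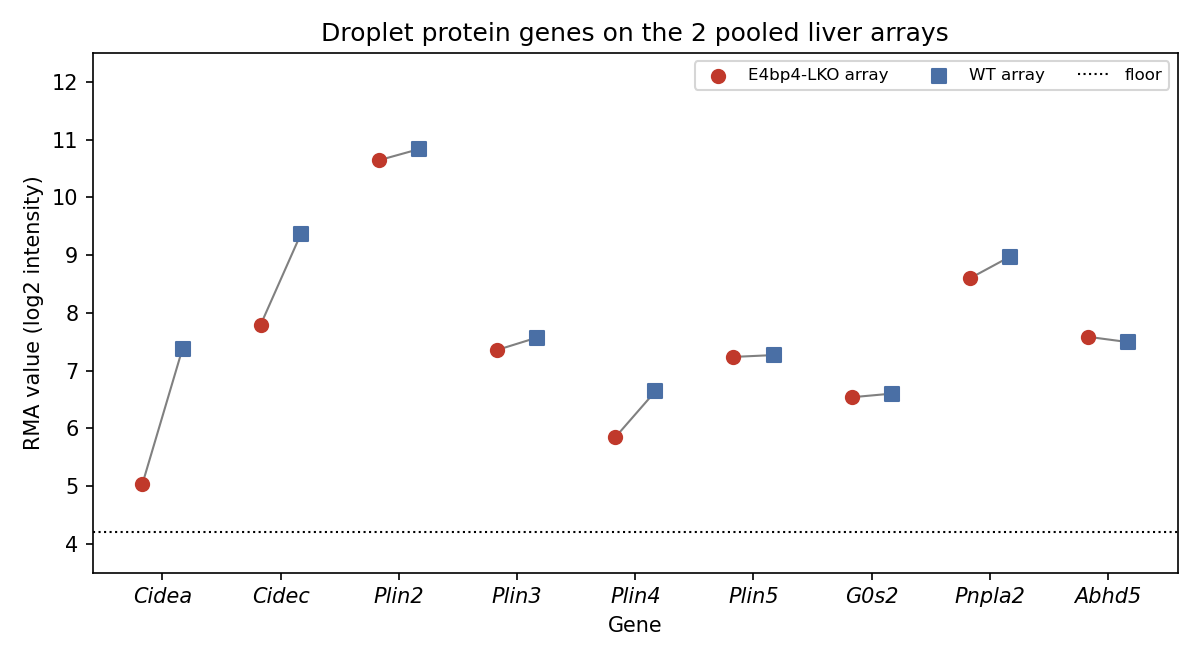
RMA value (log2 intensity, vertical axis) of the 9 measured droplet protein genes (horizontal axis) on the E4bp4-LKO array (circles, left of each pair) and the WT array (squares, right); each point is 1 array of pooled RNA, so there are no error bars, and the dotted line is the floor at 4.20. Cidea (5.03 in E4bp4-LKO and 7.38 in WT), Cidec (7.79 in E4bp4-LKO and 9.36 in WT) and Plin4 (5.84 in E4bp4-LKO and 6.64 in WT) have the steepest lines.

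Because E4BP4 binds DNA directly, the 250 bases before each annotated start site of the droplet genes were read from RefSeq (GRCm38.p6). A window was found for 9 of the 10 genes, 11 windows in all, so the counts of windows below do not cover all 10. The gene without a window is not named by these counts, and no window of Cidea is printed, so they may not cover Cidea. The windows of Cidec, one for each of its 2 annotated start sites, are shown because Cidec is among the genes that were lower by at least 1.5-fold. Capitals in all windows printed mark matches to any of 4 motifs: the E4BP4 D-box TTANGTAA, the nuclear receptor half-site AGGTCA, the PPAR element formed by that half-site repeated with 1 base between, all on both strands, and the TATA box TATAA on the gene's strand. The half-site is contained in the PPAR element.
Cidec, first start site, chr6:113435761-113436010, minus strand: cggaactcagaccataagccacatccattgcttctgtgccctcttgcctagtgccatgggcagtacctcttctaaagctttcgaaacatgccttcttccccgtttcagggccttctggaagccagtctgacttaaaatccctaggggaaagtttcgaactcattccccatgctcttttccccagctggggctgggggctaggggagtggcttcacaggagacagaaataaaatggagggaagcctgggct
Cidec, second start site, chr6:113434765-113435014, minus strand: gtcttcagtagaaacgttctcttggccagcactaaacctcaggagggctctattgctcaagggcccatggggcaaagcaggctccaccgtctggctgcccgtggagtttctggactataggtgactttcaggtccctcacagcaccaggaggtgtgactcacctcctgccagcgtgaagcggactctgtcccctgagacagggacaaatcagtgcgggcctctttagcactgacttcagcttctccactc
Neither window of Cidec held any of the 4 motifs, which says only that these letters are not in these windows. The D-box was in 0 of the 11 windows of the droplet genes and in 2.06% of the 32851 windows of all genes. The PPAR element was in 0 of the 11, against 0.0335% of all windows. The half-site was in the windows of Abhd5, Plin2 and Plin5 (14% of all windows), and TATAA in those of Cideb, Plin4 and Plin5 (16% of all windows).

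Among the perilipins, Plin4 was lower on the E4bp4-LKO array by 1.74-fold. Its values were 5.84 in E4bp4-LKO and 6.64 in WT, a difference of -0.80 that ranked 83rd from the lowest. Plin4 (S3-12) coats small nascent droplets and is best known from fat and muscle. Plin2, the common perilipin of the hepatocyte droplet, had 10.64 in E4bp4-LKO and 10.83 in WT, a difference of -0.19 (1.14-fold). Plin3 (TIP47), which is cytosolic until it moves onto new droplets, had 7.36 in E4bp4-LKO and 7.57 in WT, a difference of -0.22 (1.16-fold). Plin5, which links droplets to mitochondria, had 7.24 in E4bp4-LKO and 7.27 in WT, a difference of -0.03 (1.02-fold). All 4 perilipins had a negative difference, but those of Plin2, Plin3 and Plin5 were each within 0.22, the standard deviation between the differences of 2 probe sets of a gene over 555 genes above the floor. That deviation measures disagreement between probes, not between mice.

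Plin4 and Plin5 lie side by side on chromosome 17, with annotated start sites 7766 bases apart, and differed by -0.80 and -0.03. Plin3 is on the same chromosome, 8 places further along the RefSeq list of protein-coding genes. The windows before the start sites of the 2 neighbours are shown, and their part in this contrast was not tested.
Plin4, chr17:56109783-56110032, minus strand: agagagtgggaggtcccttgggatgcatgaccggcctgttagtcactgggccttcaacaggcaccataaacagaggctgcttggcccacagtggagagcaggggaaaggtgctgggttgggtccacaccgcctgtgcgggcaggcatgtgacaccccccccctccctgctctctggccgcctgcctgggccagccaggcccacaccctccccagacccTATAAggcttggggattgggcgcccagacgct
Plin5, chr17:56117549-56117798, minus strand: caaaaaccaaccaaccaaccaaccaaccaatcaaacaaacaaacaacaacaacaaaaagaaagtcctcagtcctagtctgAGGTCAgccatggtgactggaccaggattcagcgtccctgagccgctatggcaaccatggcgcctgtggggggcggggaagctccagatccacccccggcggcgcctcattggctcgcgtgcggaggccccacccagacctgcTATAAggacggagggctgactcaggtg
TATAA begins 32 bases before the start site in Plin4 and 27 bases before it in Plin5. The Plin5 window also holds the half-site, at 170 to 165 bases before the start site, and the Plin4 window does not. The window of a second annotated start site of Plin5 follows directly on this stretch and held none of the 4 motifs.

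Among the lipolysis genes, Pnpla2 had 8.60 in E4bp4-LKO and 8.97 in WT, a difference of -0.38 (1.30-fold), at percentile 6.26 of the genes above the floor and so inside their central 95%. Its coactivator Abhd5 had 7.58 in E4bp4-LKO and 7.49 in WT, a difference of 0.09 (1.07-fold), and was the only one of the 9 with a positive value. Its inhibitor G0s2 had 6.54 in E4bp4-LKO and 6.60 in WT, a difference of -0.06 (1.04-fold). G0s2 is the one droplet gene with 2 probe sets of its own. The brighter had 8.06 in E4bp4-LKO and 8.05 in WT, and the dimmer 5.02 in E4bp4-LKO and 5.15 in WT, so G0s2 had no settled sign. None of the 3 lipolysis genes reached 1.5-fold, beside 3.57% of the genes above the floor that did so in either direction.

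**Figure D2:**
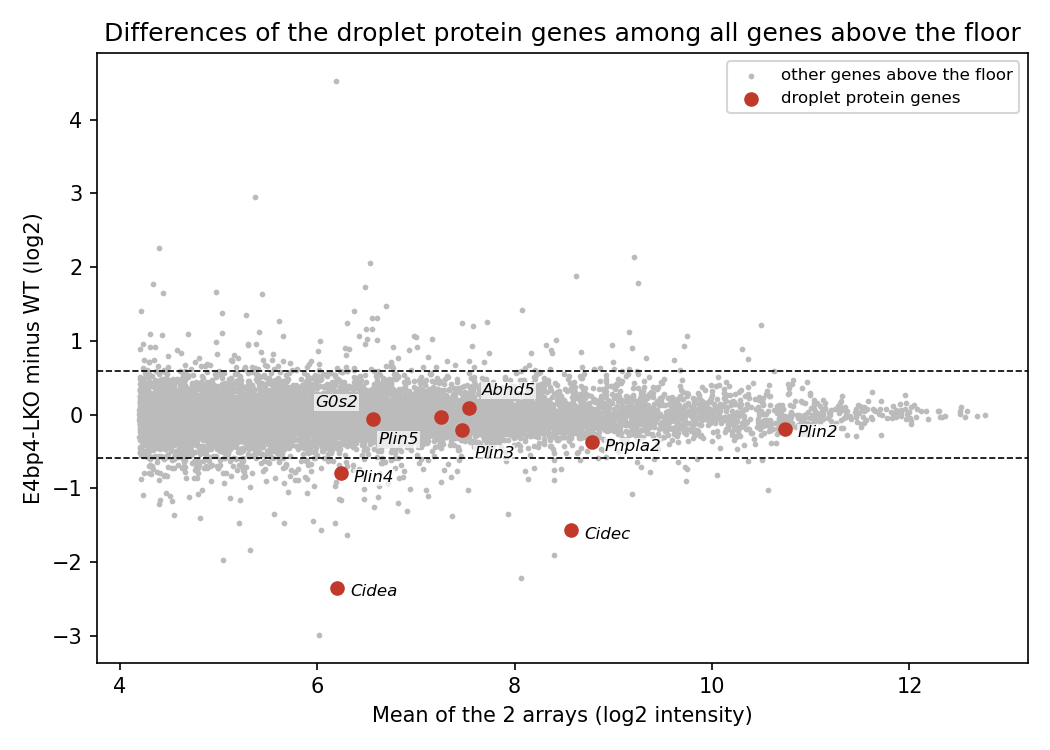
Difference between the arrays (E4bp4-LKO minus WT, log2, vertical axis) against the mean of both arrays (log2 intensity, horizontal axis); grey points are the other genes above the floor, large points the 9 droplet protein genes, and dashed lines mark 1.5-fold. Cidea (-2.35), Cidec (-1.57) and Plin4 (-0.80) lie below the lower line and the other 6 between the lines.

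Related genes were read from 7 lists of the droplet pathway. Of the 20 other droplet proteins above the floor, 0 differed by 1.5-fold in either direction, beside 3.57% of the genes above the floor, and their median was -0.004. Within this list Fitm2, which helps droplets to bud from the endoplasmic reticulum, was at -0.40, Hsd17b13, a hepatocyte droplet enzyme, at -0.28, Tmem159, a seipin partner, at 0.33, and the membrane fusion gene Snap23 at 0.38. Plin1, the perilipin of adipocytes, lay below the floor, at 3.47 in E4bp4-LKO and 3.56 in WT. The list as a whole was centred near 0, with 10 of its 20 members below it.

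The 13 other lipolysis and lipophagy genes had a median of 0.07. Of these 2 were at least 1.5-fold higher and 0 lower by as much, beside 1.51% and 2.06% of the genes above the floor. The 2 were Ces3b (0.62) and Ces1d (0.61), microsomal carboxylesterases with triglyceride hydrolase activity. Signal may be shared within this family of close paralogs, and Ces1f (-0.20) and Ces3a (0.07) were not past the threshold. Mgll (-0.40) and Lipe (-0.36), the lipases that act after Pnpla2 on monoglycerides and diglycerides, were on the other side of 0.

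Of 12 triglyceride synthesis genes 9 had a negative difference, beside 54.5% of the genes above the floor, with a median of -0.26. In this list 1 was at least 1.5-fold lower, beside 2.06% of the genes above the floor. This was Mogat1 (-0.68), a monoacylglycerol acyltransferase gene, with 4.46 in E4bp4-LKO and 5.15 in WT. Gpat3 (-0.38), Lpin2 (-0.33) and Dgat1 (-0.30) followed. The acyltransferase genes Agpat1 (0.14) and Agpat2 (0.14) were above 0, Agpat3 was at -0.14 and Dgat2 at 0.01.

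Among 17 transcription factors and coactivators reported to act on droplet genes, 1 was past 1.5-fold, beside 3.57% of the genes above the floor. Pparg, which encodes a nuclear receptor that acts on droplet genes in fat, had 6.98 in E4bp4-LKO and 7.66 in WT, a difference of -0.67. Ppargc1b (-0.37), Ppara (-0.17) and the oxysterol receptor gene Nr1h3 (0.21) were next in size, and the list median was -0.05. All 4 genes of fatty acid uptake linked to PPARG were negative, beside 54.5% of the genes above the floor, with a median of -0.44. Vldlr (-0.72) and Lpl (-0.59) passed 1.5-fold, Lpl by a narrow margin, and Cd36 (-0.30) and Fabp4 (-0.09) did not. Vldlr (4.52 in E4bp4-LKO and 5.24 in WT) and Lpl (4.95 in E4bp4-LKO and 5.54 in WT) lay not far above the floor. The part of Pparg in the differences of the uptake and droplet genes was not tested.

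Of 13 fatty acid use genes linked to PPARA, 9 had a negative difference, beside 54.5% of the genes above the floor. In this list 1, the pantetheinase gene Vnn1 (-0.78), was at least 1.5-fold lower, beside 2.06% of the genes above the floor. Acot2 (-0.46), Pdk4 (-0.40) and Fgf21 (-0.36) followed, and the list median was -0.17. Acot1, a close paralog of Acot2 that may share its signal, was at 0.33. The 10 genes of VLDL assembly, the process that Cideb serves, had a median of -0.09. In this list 0 were past 1.5-fold in either direction, beside 3.57% of the genes above the floor. With only the brightest probe set of each gene, 1 gene of this list was at least 1.5-fold lower. Mia3 (-0.28), Mia2 (-0.24) and Sort1 (-0.24), genes of endoplasmic reticulum export and lipoprotein sorting, were lower and Apoc3 (0.17) higher by small amounts. Mttp, which loads lipid onto apolipoprotein B, was at -0.16.

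Cidea, Cidec and Plin4 are also expressed outside hepatocytes, so markers of other cells are given here. In bulk RNA fewer cells of a type and less RNA per cell cannot be told apart. Of the 5 adipocyte markers measured, Adipoq (4.14 in E4bp4-LKO and 3.81 in WT), Lep, Plin1 and Ucp1 lay below the floor, and Retn was just above it, at 4.55 in E4bp4-LKO and 4.67 in WT. Their linear intensities summed to 69.3 in E4bp4-LKO and 67.7 in WT. This sum rests on 5 probe sets, of which 1 lay above the floor, and the part of fat cell RNA in the differences of the droplet genes was not tested.

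Markers of skeletal muscle were lower in E4bp4-LKO. Of 8 above the floor 6 were at least 1.5-fold lower, beside 2.06% of all genes above the floor, with a median of -1.04. The linear intensities of the 9 measured summed to 358 in E4bp4-LKO and 715 in WT. Myh2 (-1.83), Atp2a1 (-1.47), Myh4 (-1.40) and Myh1 (-1.16) differed most, and the myosin genes are close paralogs. On the E4bp4-LKO array Myh1 (3.82) and Myh4 (4.11) lay below the floor and Myh2 (4.41) just above it. Tnni2 (-0.18) and Mylpf (-0.19) did not reach 1.5-fold. Ckm, the muscle creatine kinase gene, lay below the floor, with 3.99 in E4bp4-LKO and 4.39 in WT. Plin4 and Plin5 are both expressed in muscle. The part of muscle RNA in the difference of Plin4 was not tested.

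Stellate cell markers were lower as well, with a median of -0.63 and summed intensities of 1419 in E4bp4-LKO and 1874 in WT. Of the 6 markers 3 were at least 1.5-fold lower, beside 2.06% of all genes above the floor. These were Col3a1 (-1.15) and Col1a1 (-1.01), which encode fibrillar collagens, and Lum (-0.69), which encodes a small proteoglycan; Des was at -0.58. Of 9 macrophage markers 2 were at least 1.5-fold lower, beside 2.06% of all genes above the floor. They were Gpnmb (-1.98) and Trem2 (-0.67), both genes of lipid-associated macrophages. Both were dim on the E4bp4-LKO array: Gpnmb had 4.06 there, below the floor, and 6.04 in WT. Trem2 had 4.89 in E4bp4-LKO and 5.57 in WT. Cd68 (-0.43) and Adgre1 (-0.27) followed, while the Kupffer cell genes Clec4f (0.17) and Cd5l (0.07) were above 0 and Csf1r (-0.05) and C1qa (-0.07) were close to it. The list median was -0.17, and the linear intensities of the 9 summed to 2052 in E4bp4-LKO and 2234 in WT. Hepatocyte markers had a median of 0.13, with Cps1 (0.30) and Asgr1 (0.14) slightly higher. Of these markers 0 were past 1.5-fold in either direction, beside 3.57% of the genes above the floor. The part of these cells in the differences of the droplet genes was not tested.

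**Figure D3:**
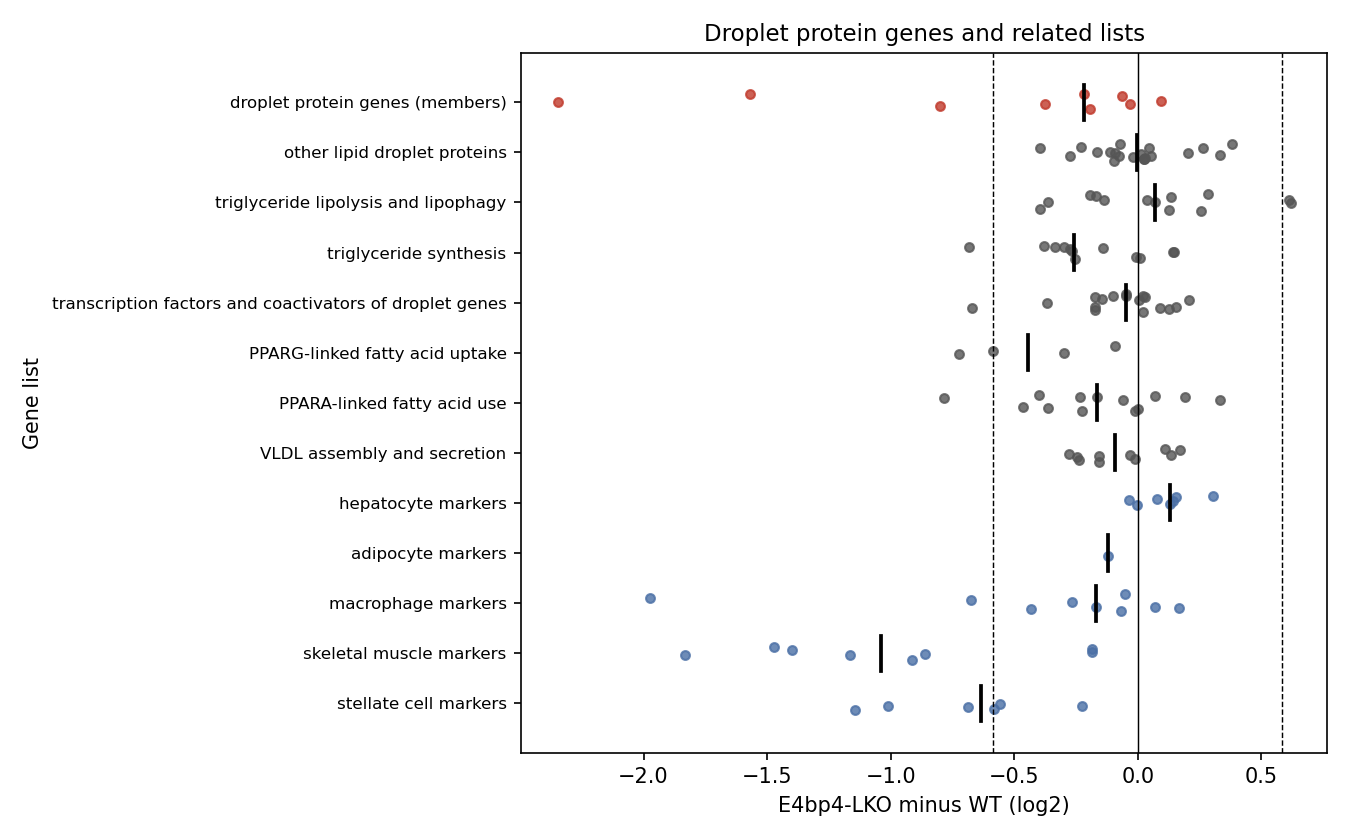
Difference between the arrays (E4bp4-LKO minus WT, log2, horizontal axis) of each gene above the floor, by list (vertical axis); the top row holds the 9 droplet protein genes, grey rows the pathway lists and blue rows the cell type markers, with a bar at each median and dashed lines at 1.5-fold. The droplet genes spread from -2.35 to 0.09 around a median of -0.22, while the other droplet proteins lie between -0.40 and 0.38.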

How the data were processed

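Total liver RNA, pooled over mice, was hybridised to Affymetrix whole-transcript arrays, 1 per genotype, per the labels' protocols. The authors deposited log2 intensities per probe set; the submitters' processing notes list RMA and R 3.4.0. RMA corrects background, equalises the arrays by quantiles and compresses differences of dim genes. Deposited values ran from 1.18 to 12.82 (E4bp4-LKO) and from 1.25 to 12.78 (WT). No scanner files or detection calls were used here, so dimness was judged from the level alone, and the number of arrays limits the precision.

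Of 41345 probe sets the platform annotation gives 1 symbol to 23521, several to 1814 and none to 16010. Only the first kind was used, averaged per gene (Python 3.11.15, pandas 2.3.3, statsmodels 0.14.6). The 9 measured members matched the RefSeq gene table (GRCm38.p6) by Entrez identifier. The array's probe positions were not used. Lists are described by counts and medians beside all genes above the floor, with a threshold of 1.5-fold. The calculation was run on simulated data whose changes were all larger than the 1.5-fold threshold, so this does not bear on calls near it. Named are the members, Nfil3, the 4 genes of each list with the largest difference above the floor, and the genes next to Cidea and Cidec by difference. Further genes (Plin1, Adipoq, Lep, Ucp1, Agpat1, Agpat2, Agpat3, Dgat2, Ces1f, Ces3a, Acot1, Mttp, Ckm, Tnni2, Mylpf, Clec4f, Cd5l, Csf1r, C1qa, Nop9 and, in the closing observations, genome neighbours) were named after their values were seen. The members, lists and motifs were chosen with earlier results of these data known. Plin1 is on 2 lists.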

Additional observations from a re-analysis of the deposited data

How the results depend on the processing

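No paired analysis was possible because each genotype has 1 array. The alternatives were the brightest probe set of each gene, probe sets with several symbols, removal of an intensity trend (lowess, fraction 0.3), centring on the median, a floor at the 75th percentile of the genes' means, no floor, and a threshold of 2-fold. Under the first 4 all 36 values of the 9 measured members stayed within 0.22 of those reported, many of them by construction. Taking the brightest probe set could change only G0s2, since the other measured members have a single one. None of the 9 has a shared probe set, so adding those could not change them. Centring shifts all genes by the same amount. Cidea ran from -2.35 to -2.32, Cidec from -1.57 to -1.55 and Plin4 from -0.80 to -0.78, while G0s2 changed sign, being 0.004 with its brighter probe set. With the floor at the 75th percentile 1 member, Cidec, was counted as 1.5-fold lower, since Cidea and Plin4 fall below that floor by construction. At 2-fold 2 members, Cidea and Cidec, were lower. Over all genes, 229 were lower and 167 higher in the setting reported. These numbers were 72 lower and 84 higher with the higher floor, 365 lower and 295 higher with no floor, and 45 lower and 43 higher at 2-fold, as fewer or more genes are counted. The median of the fatty acid uptake genes moved to -0.19 with the higher floor, which leaves fewer of them and 0 past 1.5-fold. After removal of the trend or centring 1 of them was past 1.5-fold, in place of 2. Of the macrophage markers 0 were past 1.5-fold with the higher floor, in place of 2. Of the skeletal muscle markers 2 were at least 1.5-fold lower with the higher floor, in place of 6. Of 168 counts of list genes past the threshold 13 moved by over 1.5 times, but many counts were 0 as reported and mostly stayed 0. At 2-fold the counts of the lipolysis, triglyceride synthesis, transcription factor, PPARG-linked and PPARA-linked lists all fell to 0. No difference can be set against the variation between mice.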

Other observations

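The protein-coding neighbours of the droplet genes on the chromosome were looked up after the values of the droplet genes were known. Tubb6, a beta-tubulin gene beside Cidea, was lower on the E4bp4-LKO array, with 5.56 in E4bp4-LKO and 6.32 in WT (-0.76). Impa2, on the other side of Cidea, was not measured. Lamb3, a laminin chain gene beside G0s2, had 4.25 in E4bp4-LKO and 5.33 in WT (-1.08), whereas G0s2 differed by -0.06. Apart from Plin4, these were the largest differences among the neighbours measured, and Ano10 beside Abhd5 (-0.44) followed. Of all genes above the floor 2.06% were lower by at least 1.5-fold. The neighbours of Cidec, Rpusd3 (-0.12) and Jagn1 (0.17), did not share its difference of -1.57. On the far side of Plin5 from Plin4 lies Lrg1, an acute phase glycoprotein gene, with 9.41 in E4bp4-LKO and 9.15 in WT (0.26).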
